A study of Rattus norvegicus with 18 samples.

Results

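How the liver response to carbon tetrachloride (CCl4) on day 84 of daily dosing differed from the response on day 28 was measured as a difference of differences: CCl4 minus control at day 84, minus CCl4 minus control at day 28. The comparison used 12 of the 18 arrays of the series, all those of the control and CCl4 groups, and 10842 of the 15645 genes matched to probes, those well above background on all 3 arrays of at least 1 of the 4 groups. Each of the 4 groups held 3 liver RNA samples of male F344/NSlc rats, which were bought at 5 weeks of age and acclimatised for 1 week. The CCl4 groups received 100 mg/kg in corn oil at 5 mL/kg by gavage every day for 28 or 84 days. The control groups are titled vehicle, whereas the treatment protocol calls them untreated on a basal diet, so whether they were gavaged with oil is not known. Controls of day 84 were older than controls of day 28 by the length of the dosing, so an effect can change between the days because the CCl4 arrays changed, because the control arrays changed, or both. The series also holds rats given N-nitrosodiethylamine. Their arrays entered only through the shared estimate of spread, the choice of 1 probe per gene and the outlier flags. The study asked about genes that non-genotoxic carcinogens such as CCl4 lower in rat liver.

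CCl4 is converted by cytochrome P450 enzymes of hepatocytes around the central vein into a radical that kills those cells, and repeated dosing keeps up a cycle of death, regeneration, inflammation and scarring. In the same tissue hepatocytes make cholesterol through the mevalonate pathway, whose genes are switched on by the sterol-sensing factor SREBP2, and burn fatty acids with enzymes whose genes are switched on by the fatty acid receptor PPARalpha. In whole liver, fewer cells of a type and less RNA per cell cannot be told apart.

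Signals are given on the scaled log2 scale, the log2 signal minus the 75th percentile of its array, so that 1 unit is a 2-fold difference and 0 is the level that 75% of probes stayed below. The array of CCl4 replicate 2 at day 28 stood apart: along the first principal component, with 74.9% of the variance, it lay at 74.9 against 37.5 and 24.4 for the other day-28 CCl4 arrays, 58.2 to 64.5 for those of day 84 and −58.8 to −50.2 for controls. The arrays lay on 3 slides. Slide 1 held the day-28 controls and day-28 CCl4 replicates 1 and 2. Slide 2 held day-28 CCl4 replicate 3, the day-84 controls and day-84 CCl4 replicate 1. Slide 3 held day-84 CCl4 replicates 2 and 3 and no control, and it alone was scanned on another day. For these 2 arrays slide and scan day cannot be told apart. The control arrays of each day therefore lay on a slide of their own, and for controls slide and day cannot be told apart. With the slide fitted as a block, the change of effect equals the day-84 difference within slide 2 minus the day-28 difference within slide 1. Its CCl4 side then rests on day-84 CCl4 replicate 1 alone and on day-28 CCl4 replicates 1 and 2. Whether a call was lost in that setting through the slide or through fewer arrays was not tested. Scaling to 280 spike-in probes, in place of the 75th percentile, adds 0.80 to every day-28 effect and 0.55 to every day-84 effect and takes 0.25 from every difference of days. All 15 hepatocyte markers were detected, and their summed signal, in units of the 75th percentile, was 8634 to 8789 in day-28 controls, 4097 to 5407 with CCl4 at day 28, 7254 to 7443 in day-84 controls and 4576 to 6000 with CCl4 at day 84.

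Most CCl4 effects had the same direction on both days. At an adjusted p under 0.05, 6505 of 10842 genes (60.0%) differed between CCl4 and control at day 28, 2845 higher (26.2%) and 3660 lower (33.8%). At day 84 the count was 7008 (64.6%), with 3050 higher (28.1%) and 3958 lower (36.5%). Of the 5289 genes called on both days, 5222 had the same direction and 67 the opposite. Across genes the effects of the 2 days, which share no array, had a Pearson r of 0.856, a description of genes that are not independent replicates. The change of the CCl4 effect itself was called for 663 genes (6.12%), with 386 higher at day 84 (3.56%) and 277 lower (2.55%). Counts of list members given below are to be read against these shares. Of the 663 calls 58.2% were higher, against 47.2% when arrays were scaled to the median, 28.9% when they were scaled to spike-ins and 43.6% with the slide as a block. The total was 406 with the slide as a block, 264 of them among the 663, and 1373 without day-28 CCl4 replicate 2, 642 of them among the 663. It was 413, 385 and 390 without day-84 control replicate 1, day-84 control replicate 2 or day-84 CCl4 replicate 1.

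The 663 genes fall into effects that grew (378), faded (219) or reversed (66). A grown effect was called at day 84 and larger there, 239 as rises and 139 as falls. For 124 of the grown rises and 99 of the grown falls no effect had been called at day 28. A faded effect was called at day 28 and smaller or not called at day 84, 111 as rises and 108 as falls. Of these, 71 rises and 78 falls were no longer called at day 84. A reversed effect was called on both days with opposite signs, 39 from lower to higher and 27 from higher to lower.

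**Figure D1:**
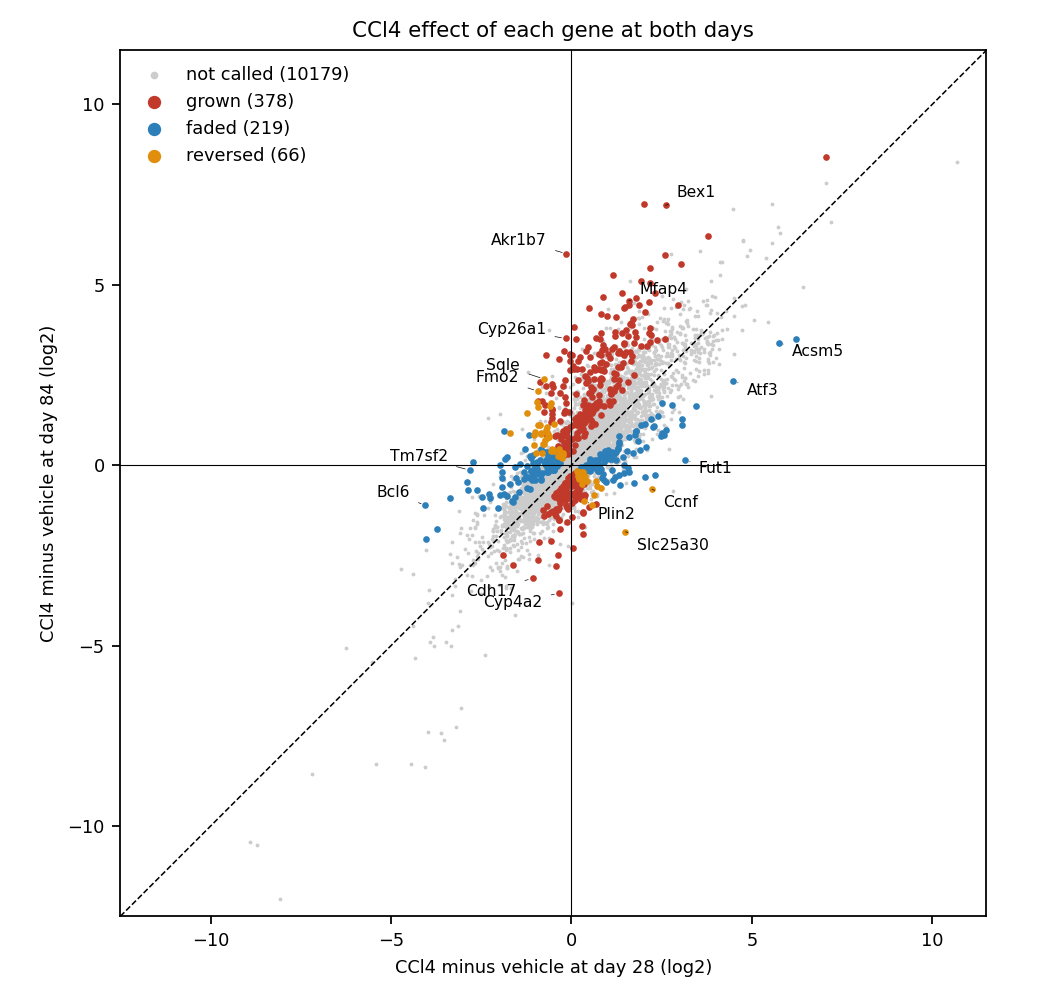
CCl4 minus control in log2 at day 28 (horizontal) and day 84 (vertical) for the 10842 genes tested, 1 point per gene, with grey for genes whose effect was not called as different between the days. Points above the dashed line of equal effects were higher at day 84; the 378 grown effects lie farther from zero on the vertical axis than on the horizontal one, the 219 faded effects nearer, and the 66 reversed effects lie in the upper left and lower right parts.

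Both arms of the design moved between the days. Among CCl4 arrays 1537 genes (14.2%) differed between day 84 and day 28, 681 higher (6.28%) and 856 lower (7.90%). Among control arrays the count was 1069 (9.86%), 487 higher (4.49%) and 582 lower (5.37%). With the slide as a block, which leaves the control days to be compared only through the CCl4 arrays, the counts were 441 and 51. Of the 663 genes, 349 were called between the days in the CCl4 arrays alone, 220 in the control arrays alone, 50 in both and 44 in neither. Grown rises moved mostly with the CCl4 arrays, which had the larger change for 191 of the 239, with a median change of 1.0 in CCl4 arrays and −0.41 in control arrays. Faded falls moved mostly with the controls, which had the larger change for 77 of the 108, with a median of −0.58 in control arrays and 0.19 in CCl4 arrays.

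**Figure D2:**
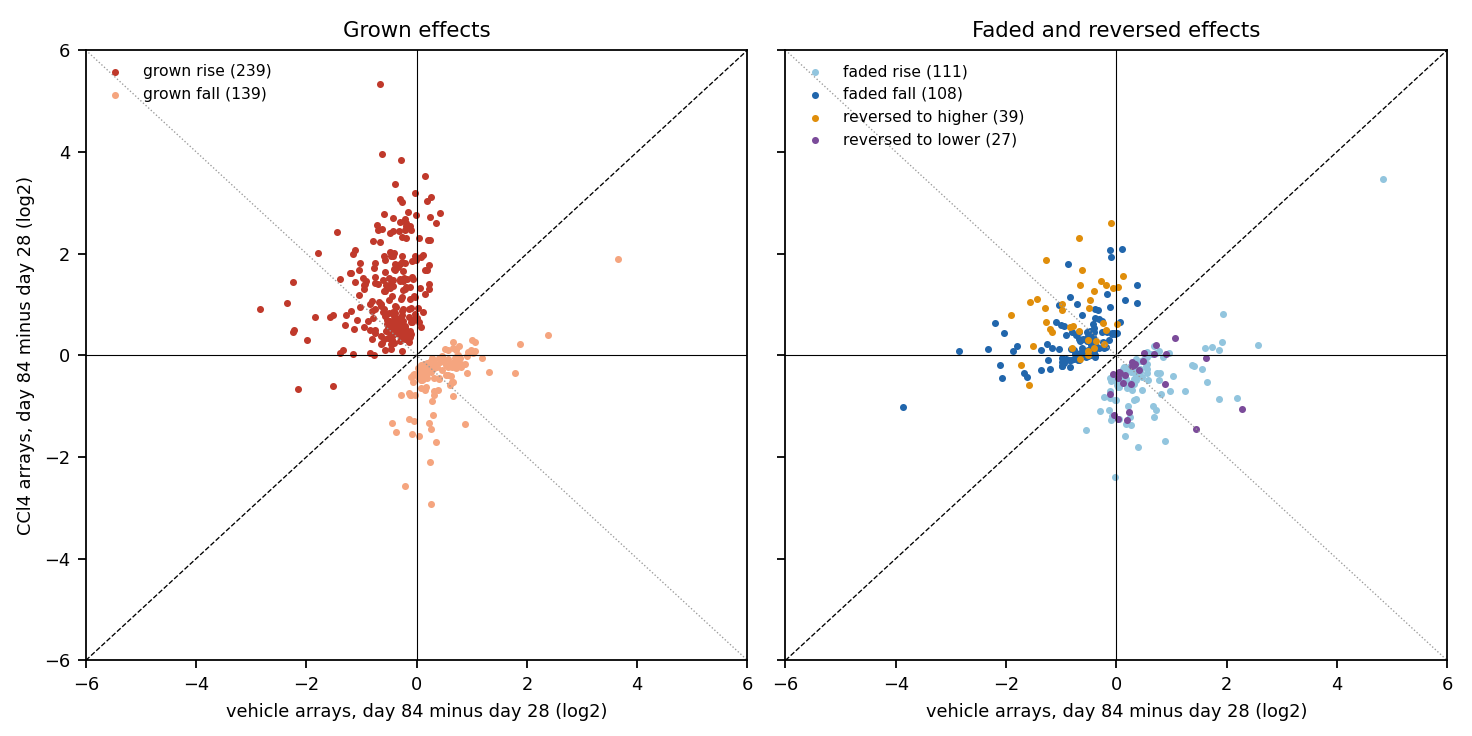
Change between day 28 and day 84 in control arrays (horizontal) and CCl4 arrays (vertical), in log2, 1 point per called gene, with grown effects on the left and faded and reversed effects on the right. The dashed line marks equal change in both arms and the dotted line equal and opposite change; grown rises reach up to 5.34 on the CCl4 axis, whereas many faded falls lie to the left, at control changes below 0.

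Genes of cholesterol synthesis made up the most frequent change of effect. Of 26 genes of the synthesis and uptake list, 17 were higher and 1 was lower in the change of the CCl4 effect, with a median change of 1.09 against −0.0013 over all genes tested. At day 28 CCl4 lowered 23 of the 26 and raised 0, with a median effect of −0.89, while at day 84 it raised 10 and lowered 4, with a median of 0.23. Squalene epoxidase (Sqle), an oxygen-requiring and rate-setting step on the way to sterols, changed most, from an effect of −0.75 at day 28 to 2.39 at day 84. Both arms moved: among CCl4 arrays 19 of the 26 were higher at day 84 than at day 28 and 1 was lower, and among control arrays 2 were higher and 5 lower.

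For 18 of the 26 genes RefSeq promoter sequence was at hand (assembly GRCr8), and 5 are shown here. Hsd17b7, Idi1, Hmgcs1 and Acat2 had the smallest adjusted p among the reversed genes with a sequence, and Insig2 moved the other way. Sequences of the reversed genes Msmo1 and Lss were at hand and are not shown. Each run gives the 250 bases before the start of the gene, 5′ to 3′ on the strand of the gene, with capitals for the motifs searched. These were the CCAAT box bound by NF-Y, a partner of SREBP2, and CACNCCAC, the core of a sterol regulatory element, both on either strand, so that ATTGG is CCAAT on the other strand. The motifs were chosen after the values had been seen.
Hsd17b7, chr13:84722755-84723004, minus strand: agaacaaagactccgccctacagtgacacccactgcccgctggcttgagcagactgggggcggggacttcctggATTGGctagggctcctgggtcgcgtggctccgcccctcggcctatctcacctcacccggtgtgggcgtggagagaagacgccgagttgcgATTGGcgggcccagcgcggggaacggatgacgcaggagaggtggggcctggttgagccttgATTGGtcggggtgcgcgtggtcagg
Idi1, chr17:66547525-66547774, minus strand: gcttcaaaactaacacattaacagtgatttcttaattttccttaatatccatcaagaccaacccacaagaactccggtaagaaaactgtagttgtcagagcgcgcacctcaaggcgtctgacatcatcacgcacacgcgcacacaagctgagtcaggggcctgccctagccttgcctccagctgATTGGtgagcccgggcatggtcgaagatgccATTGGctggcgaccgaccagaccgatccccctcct
Hmgcs1, chr2:53382054-53382303, plus strand: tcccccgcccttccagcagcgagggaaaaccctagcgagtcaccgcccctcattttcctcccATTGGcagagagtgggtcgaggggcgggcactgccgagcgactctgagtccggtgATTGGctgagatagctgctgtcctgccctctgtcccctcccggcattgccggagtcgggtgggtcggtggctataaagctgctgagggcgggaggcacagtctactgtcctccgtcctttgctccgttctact
Acat2, chr1:50100590-50100839, plus strand: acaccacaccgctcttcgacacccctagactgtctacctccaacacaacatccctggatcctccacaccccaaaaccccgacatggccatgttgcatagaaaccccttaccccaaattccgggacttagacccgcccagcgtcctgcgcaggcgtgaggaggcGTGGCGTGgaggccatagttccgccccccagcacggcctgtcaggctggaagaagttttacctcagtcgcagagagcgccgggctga
Insig2, chr13:35040099-35040348, minus strand: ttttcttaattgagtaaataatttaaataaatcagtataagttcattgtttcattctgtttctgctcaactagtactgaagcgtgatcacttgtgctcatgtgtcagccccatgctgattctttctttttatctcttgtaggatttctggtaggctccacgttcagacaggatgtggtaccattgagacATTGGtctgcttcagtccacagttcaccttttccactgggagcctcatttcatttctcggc

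CCAAT was found in 15 of the 18 promoters of the list (83.3%), in 10 of the 12 whose genes were called higher (83.3%) and in 34.3% of all 27457 rat promoters in the table. The Hsd17b7 window holds 3 such boxes, those of Idi1 and Hmgcs1 hold 2 each, and that of Insig2, whose effect moved the other way, holds 1. CACNCCAC was found in 3 of the 18 (16.7%), Acat2, Ebp and Insig1, against 4.84% of all promoters, and the capitals in the Acat2 window mark it. The same CCAAT count was 15 of 18 for genes of mitosis (83.3%) and 10 of 32 for PPARalpha targets (31.2%). A match is a description of letters, not a measured site.

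Sqle had scaled log2 signals of 3.43, 2.53 and 2.84 in day-28 controls, 2.44, 2.14 and 1.96 with CCl4 at day 28, 1.76, 1.39 and 1.82 in day-84 controls and 4.17, 4.10 and 3.87 with CCl4 at day 84. The CCl4 arrays lay below all controls at day 28 and above all controls at day 84, and the day-84 controls were the lowest group. Its effect changed by 3.14 ± 0.33 (SE; adjusted p = 0.000631).
Hsd17b7, a reductase late in the pathway, stood at 1.24, 0.25 and 0.66 in day-28 controls, 0.17, −0.59 and −0.19 with CCl4 at day 28, 0.08, −0.03 and 0.13 in day-84 controls and 1.21, 1.26 and 1.05 with CCl4 at day 84. Groups of the same day did not overlap, and the order of CCl4 and control turned over (change 2.04 ± 0.30, adjusted p = 0.00286).
Idi1, which interconverts the 5-carbon building blocks of sterols, gave 3.90, 3.07 and 3.40 against 2.89, 2.19 and 2.71 with CCl4 at day 28, and 2.57, 2.41 and 2.45 against 3.72, 3.5 and 3.58 with CCl4 at day 84 (change 1.99 ± 0.30, adjusted p = 0.00334). Again the groups of a day were apart and their order turned over.
Hmgcs1, the HMG-CoA synthase of the pathway, had day-28 signals of 7.66, 7.13 and 7.19 in controls and 6.57, 5.88 and 6.45 with CCl4, and day-84 signals of 6.91, 6.98 and 6.66 in controls and 7.35, 7.42 and 7.42 with CCl4. Its effect went from −1.02 to 0.55 (change 1.57 ± 0.26, adjusted p = 0.00456).
Acat2, the cytosolic thiolase that opens the pathway, went from −1.04 to 0.83 (change 1.87, adjusted p = 0.00443). The reversed genes of the list also included Msmo1 (−0.67 to 1.06) and Lss (−0.77 to 0.58), a sterol demethylase and the cyclase that forms lanosterol, which were named after their values had been seen.

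In 7 more genes a fall at day 28 was no longer called at day 84. Tm7sf2, a sterol reductase, had signals of 6.01, 5.83 and 6.34 in day-28 controls, 3.71, 2.22 and 3.79 with CCl4 at day 28, 5.05, 5.22 and 5.26 in day-84 controls and 5.22, 5.10 and 4.79 with CCl4 at day 84. The groups were apart at day 28, with replicate 2 of the CCl4 group lowest, and overlapped at day 84 (change 2.68 ± 0.46, adjusted p = 0.00566). The others included Cyp51, Fdft1, Pmvk, Fdps and Ebp, enzymes between mevalonate and cholesterol named after their values had been seen, with day-28 effects of −1.32 to −0.85 and day-84 effects of −0.20 to 0.45.
Mvk and Mvd, a kinase and the decarboxylase of the mevalonate steps, were not called at day 28 and rose at day 84 (0.70 and 0.80).

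Not all of the list moved. The sterol carrier Stard4 stayed at −1.14 and −1.07. The changes of Nsdhl, Srebf2, Dhcr7, Sc5d and Insig1, between 0.41 and 0.94, were not called either, that of Srebf2, which encodes SREBP2, at 0.47 with an adjusted p of 0.0603. Insig2, which holds the SREBP2 complex in the endoplasmic reticulum, moved the other way, from −1.63 to −2.78 (change −1.15, adjusted p = 0.0461). With the slide as a block 12 genes of the list were called higher and 0 lower, with a median of 1.32. Scaled to spike-ins 8 were called higher and 1 lower, the median change was 0.84, the median day-28 effect −0.09 and 0 genes counted as reversed.

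**Figure D3:**
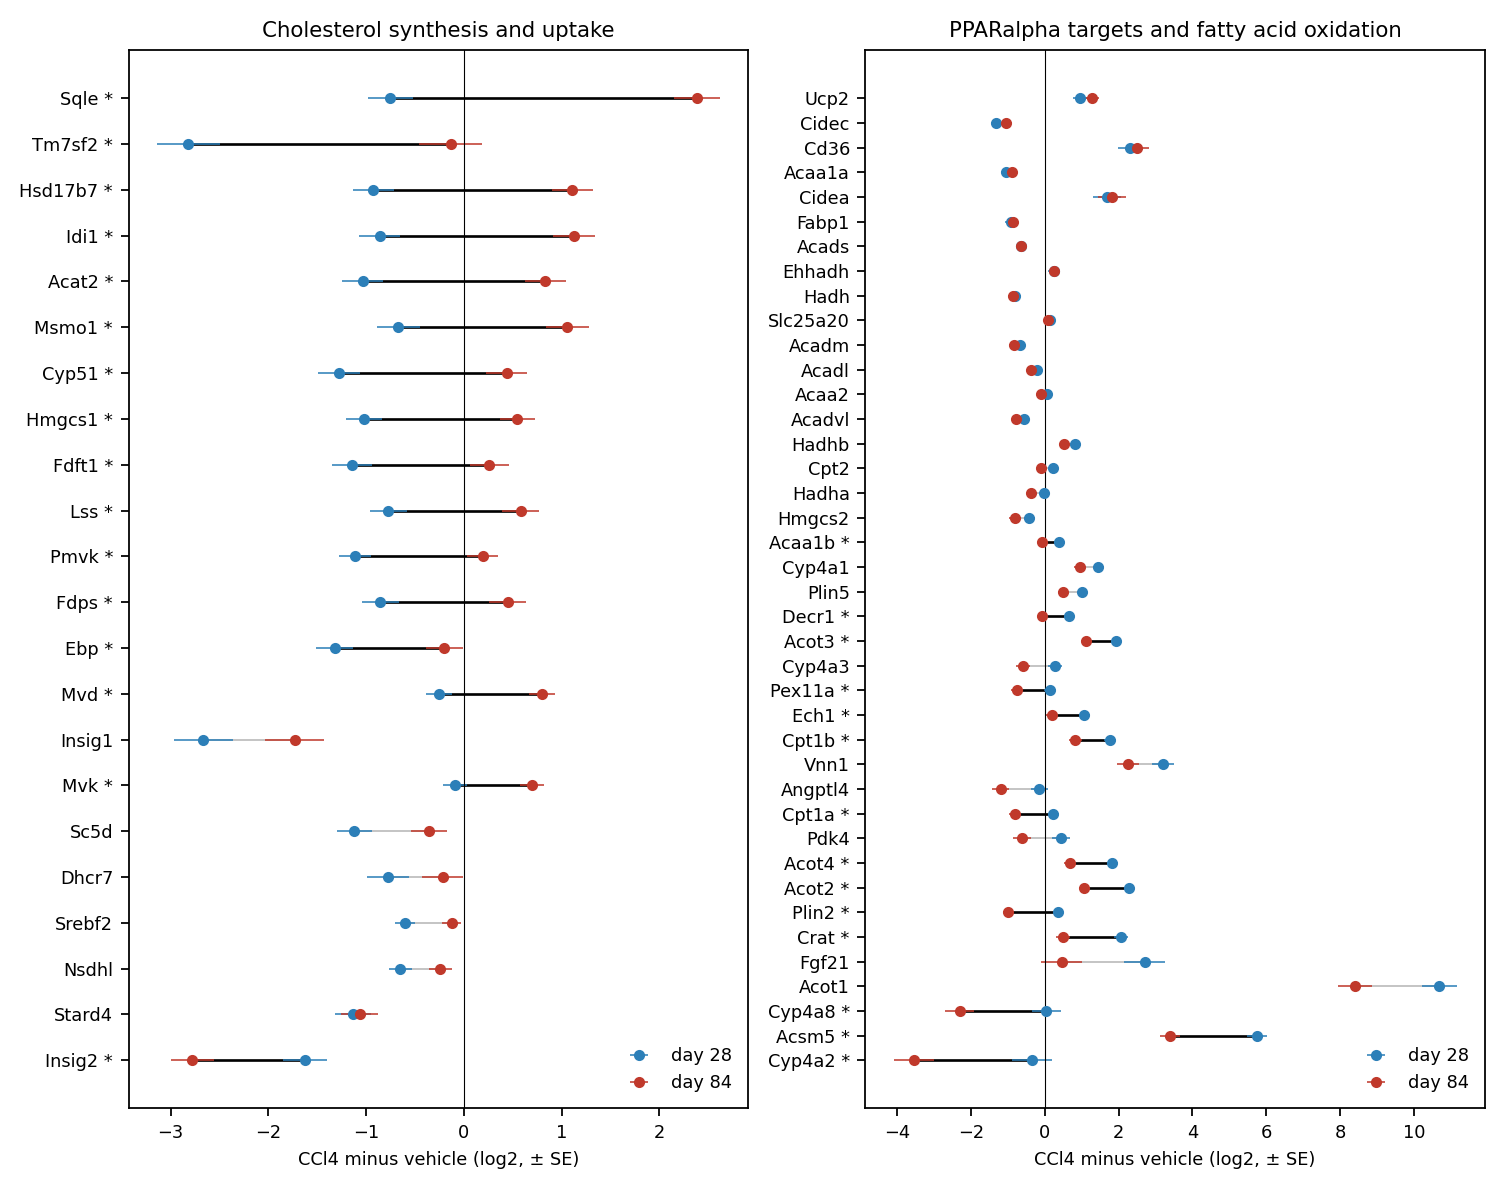
CCl4 minus control in log2 with its SE at day 28 (blue) and day 84 (red) for 22 genes of the cholesterol list (left) and 40 of the PPARalpha and fatty acid oxidation list (right), sorted by the change; asterisks and black lines mark genes called in the change. On the left the red points of 21 of the 22 genes lie to the right of the blue ones, and on the right those of 32 of the 40 lie to the left.

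PPARalpha targets and genes of fatty acid oxidation moved in the opposite direction. Of 41 genes tested 0 were higher and 15 lower in the change of effect, with a median change of −0.51. CCl4 had raised 20 and lowered 9 of them at day 28, with a median of 0.28, and raised 14 and lowered 19 at day 84, with a median of −0.11. In the CCl4 arrays 18 of the 41 were lower at day 84 than at day 28 and 0 higher, while among control arrays 4 were higher and 1 lower. The thioesterases Acot2, Acot3 and Acot4, the carnitine acetyltransferase Crat, the carnitine palmitoyltransferase Cpt1b, the synthetase Acsm5 and the oxidation enzymes Ech1, Decr1 and Acaa1b kept part of a day-28 rise or lost it.

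Acot2, a thioesterase of mitochondria, had signals of 1.02, 1.31 and 1.04 in day-28 controls, 3.21, 3.5 and 3.47 with CCl4 at day 28, 1.34, 1.65 and 1.43 in day-84 controls and 2.60, 2.44 and 2.54 with CCl4 at day 84. CCl4 and control were apart on both days, and the gap narrowed from 2.27 to 1.05 (change −1.22 ± 0.15, adjusted p = 0.00157). Crat gave 2.85, 3.63 and 3.65 against 5.40, 5.42 and 5.51 at day 28, and 4.19, 4.37 and 3.98 against 4.52, 4.57 and 4.94 at day 84. Its gap narrowed from 2.06 to 0.49 (change −1.57, adjusted p = 0.00651) as controls rose and CCl4 arrays fell. In Acsm5, which activates medium-chain fatty acids, the CCl4 arrays hardly moved, at 5.35, 5.33 and 5.43 on day 28 and 5.80, 5.57 and 5.37 on day 84. Its controls went from −0.14, 0.01 and −0.97 to 1.62, 2.29 and 2.68, so that the effect shrank from 5.74 to 3.38 (change −2.36, adjusted p = 0.00456).

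Other members fell below control at day 84. Plin2, the coat protein of lipid droplets, had signals of 6.68, 6.67 and 6.61 in day-28 controls, 6.87, 7.15 and 7.0 with CCl4 at day 28, 6.75, 7.06 and 6.86 in day-84 controls and 5.77, 5.85 and 6.07 with CCl4 at day 84. An effect of 0.35 became −0.99, with no overlap of groups on either day (change −1.34 ± 0.19, adjusted p = 0.00266).
Cyp4a2, a fatty acid hydroxylase more abundant in male rat liver, stood at 7.55, 7.89 and 7.63 in day-28 controls, 7.68, 6.30 and 8.03 with CCl4 at day 28, 7.93, 8.01 and 7.93 in day-84 controls and 2.98, 4.99 and 5.25 with CCl4 at day 84. The groups overlapped at day 28 and were apart at day 84 (change −3.20 ± 0.77, adjusted p = 0.0272). Cyp4a8 followed the same course, from 0.04 to −2.30 (change −2.34, adjusted p = 0.0260). Whether probes of these related Cyp4a genes tell the family members apart was not tested. Cpt1a, the entry step of mitochondrial oxidation, went from 0.23 to −0.82 (change −1.05, adjusted p = 0.0140), with controls that rose by 0.81 and CCl4 arrays that differed by −0.23 between the days.

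Large differences without a call included the hormone gene Fgf21 (2.71 and 0.46; change −2.25, adjusted p = 0.107) and the cytosolic thioesterase Acot1 (adjusted p = 0.0568), which was well above background on 6 of the 12 arrays. The changes of Ehhadh, Acads, Fabp1 and Cd36, a peroxisomal and a mitochondrial oxidation enzyme, a fatty acid binding protein and a fatty acid transporter, lay between 0.006 and 0.20 and were not called. With the slide as a block 10 of the 41 were called lower and that of Cyp4a8 was not (adjusted p = 0.0541). The count was 18 without day-28 CCl4 replicate 2, 14 on the spike-in scale and 7 without day-84 control replicate 2. In fatty acid and triglyceride synthesis 0 of 23 genes were called, against 6.12% of all genes tested, with medians of −1.09 and −1.05.

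Reversed effects outside these lists joined genes of the cell cycle, detoxification and immunity. Cyclin F (Ccnf), a substrate receptor of a ubiquitin ligase that acts late in the cell cycle, had signals of −2.14, −1.59 and −1.5 in day-28 controls, 0.59, 0.58 and 0.28 with CCl4 at day 28, −0.16, −0.14 and −0.62 in day-84 controls and −1.03, −1.03 and −0.85 with CCl4 at day 84. CCl4 and control changed places with no overlap, and the arms moved by similar amounts, 1.44 in controls and −1.46 in CCl4 arrays. Its change, −2.90 ± 0.26, had the smallest adjusted p among the genes named here, 0.000264. Under normexp, another background correction, its change was −1.89. All 25 genes of mitosis and cell cycle tested were higher with CCl4 on both days, with medians of 3.43 and 3.14, and the kinase Aurka (2.79 to 1.67, adjusted p = 0.00627) and the transcription factor Foxm1 (2.20 to 1.27, adjusted p = 0.0219) were the 2 called in the change. The change was below 0 in 23 of the 25, with a median of −0.42, and under normexp 8 were called lower, with a median of −0.71. In the CCl4 arrays 19 of the 25 were lower at day 84 than at day 28, and in the controls 6 were.

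Fmo2, a flavin monooxygenase, went from −0.77, −0.46 and −1.10 in controls against −1.49, −1.62 and −2.01 with CCl4 at day 28 to −1.42, −1.61 and −1.33 against 1.26, 0.20 and 0.32 at day 84. The groups were apart on both days in opposite order (change 2.98 ± 0.38, adjusted p = 0.00157). Ddit4, an inhibitor of the growth kinase mTORC1, gave 2.83, 2.40 and 2.0 against 0.65, 1.07 and 0.39 at day 28 and 0.58, 0.90 and 1.07 against 1.96, 1.64 and 1.65 at day 84 (change 2.61, adjusted p = 0.00495). In Tmem273 the effect went from −0.58 to 1.65 (change 2.23, adjusted p = 0.00266; under normexp 1.2). Slc25a30, a carrier of the mitochondrial inner membrane, went from 1.5 to −1.85 (change −3.34 ± 0.76, adjusted p = 0.0200), and with the slide as a block its adjusted p was 0.0898.
Stat3, the factor that drives acute phase genes, reversed by smaller amounts, from −0.57 to 0.38 (change 0.96, adjusted p = 0.00443), and its controls fell by 0.81. Lysozyme (Lyz2), made by macrophages, stood at 5.07, 5.14 and 5.45 against 4.52, 4.51 and 4.25 with CCl4 at day 28, and at 4.94, 5.17 and 5.36 against 5.86, 5.80 and 5.58 at day 84 (change 1.39, adjusted p = 0.00443). The controls of both days overlapped, so the CCl4 arrays carried this change. The B-cell attractant Cxcl13 went from −0.94 to 1.76 (change 2.70, adjusted p = 0.00799), with signals near the lower end of the range and a change of 1.30 under normexp. On the spike-in scale the change was not called for Stat3 (adjusted p = 0.108) and Lyz2 (adjusted p = 0.0595). That scale adds 0.80 to every day-28 effect and 0.55 to every day-84 effect, and 35 genes in place of 66 counted as reversed there. The day-28 falls of Tmem273 and Stat3 were smaller than 0.80, and those of Lyz2, Fmo2 and Cxcl13 were close to that amount.

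**Figure D4:**
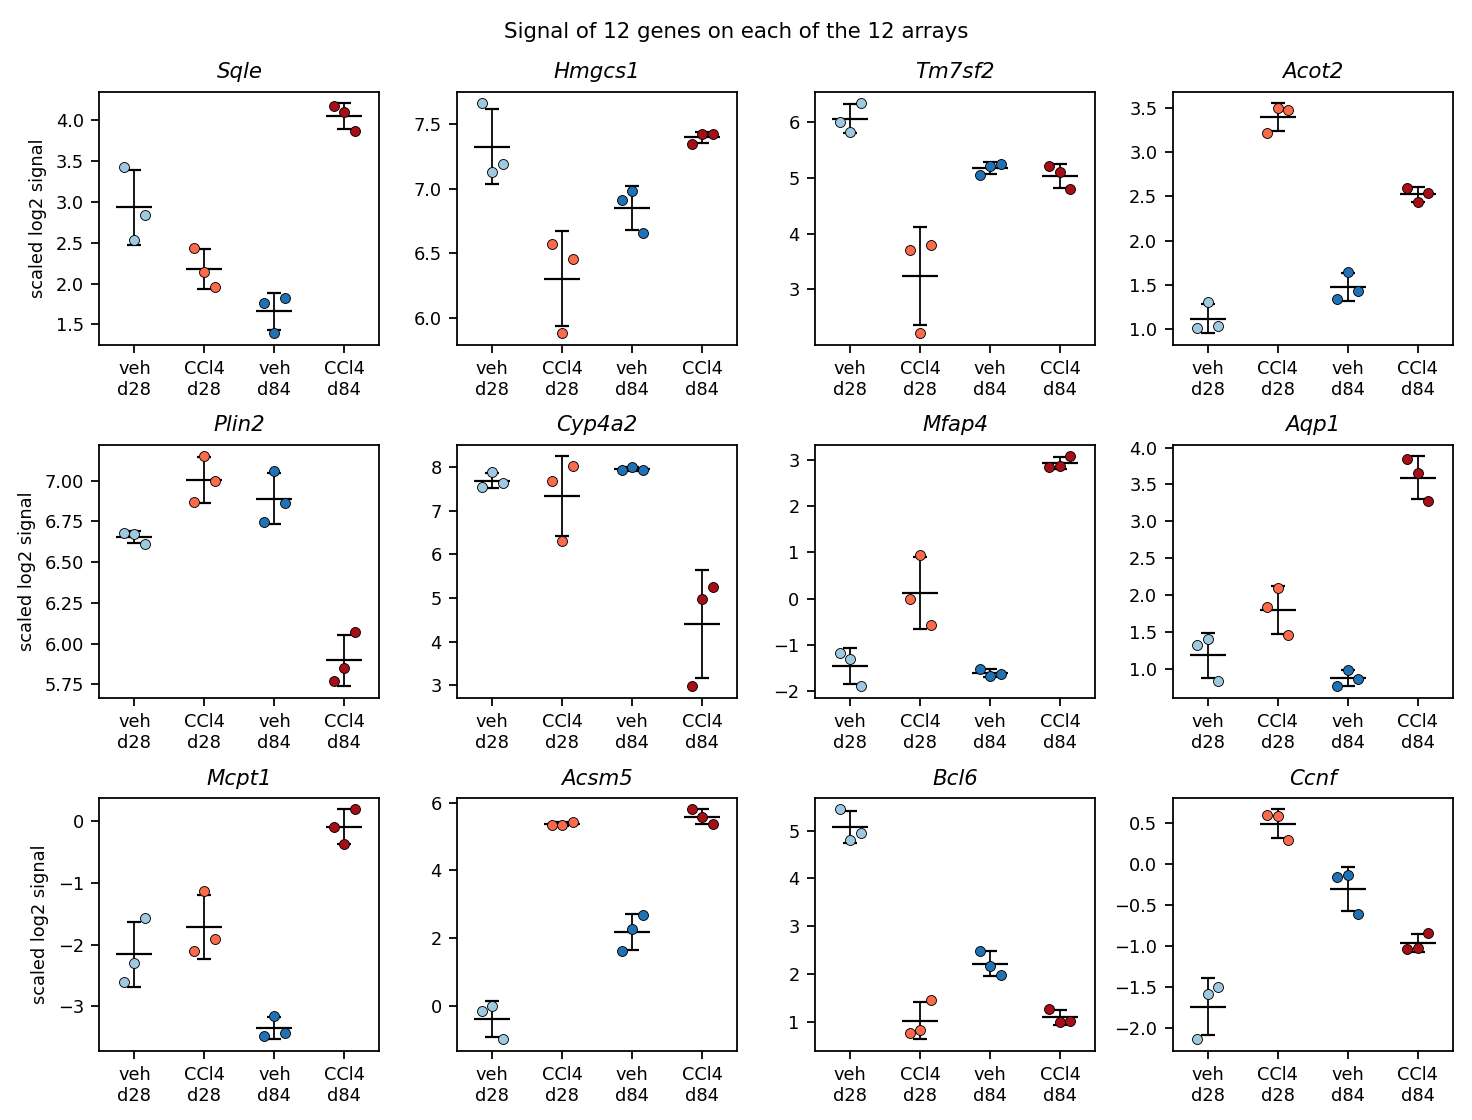
Scaled log2 signal of 12 named genes on each of the 12 arrays, 1 point per array, with the mean and SD (n = 3) of control (veh) and CCl4 groups at day 28 and day 84; each panel has its own vertical range. The CCl4 points of Sqle and Hmgcs1 cross from below to above the controls, those of Plin2 and Ccnf from above to below, and those of Mfap4 and Aqp1 move further above.

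Grown rises included genes of the matrix. Mfap4, a protein of elastic microfibrils, had signals of −1.18, −1.31 and −1.90 in day-28 controls, −0.02, 0.95 and −0.57 with CCl4 at day 28, −1.52, −1.68 and −1.64 in day-84 controls and 2.85, 2.88 and 3.09 with CCl4 at day 84. Its rise went from 1.59 to 4.56 (change 2.97 ± 0.42, adjusted p = 0.00266). Elastin (Eln) gave 0.19, 0.44 and −0.52 against 0.87, 1.22 and 0.60 at day 28, and −1.51, −1.45 and −1.66 against 1.54, 1.44 and 1.99 at day 84 (change 2.34, adjusted p = 0.00299), and its controls fell by 1.58. Mgp, an inhibitor of calcification in matrix, went from 1.49 to 4.37 (change 2.88, adjusted p = 0.00443). Of 24 structural matrix genes tested, 4 were called higher in the change and 0 lower (median 0.80), Mfap4, Eln, Col6a2 and Fbln1. The fibrillar collagens were raised on both days without a called change, Col1a1 by 2.65 and 3.10 and Col1a2 by 2.65 and 3.47. The matrix count depended on 1 array: it was 16 of 24 without day-28 CCl4 replicate 2, whose signals for Mfap4, Mgp and Col6a2 were the highest of its group, 2 with the slide as a block and 2 on the spike-in scale. Of 18 genes of TGF-beta and scarring signals 2 were higher, 1 was lower and 15 were not called, against 6.12% called over all genes tested. Ltbp1, which stores latent TGF-beta in matrix, rose from 1.29 to 3.10 (change 1.81, adjusted p = 0.00715) and Tgfb3 from 1.28 to 2.73 (change 1.45, adjusted p = 0.0185), while the receptor Tgfbr2 fell from −0.33 to −0.77 (change −0.44, adjusted p = 0.0460). Spike-in scaling ended all 3 calls (adjusted p = 0.0601, 0.128 and 0.0837), the slide as a block that of Tgfb3 (0.0564), and leaving out day-28 CCl4 replicate 2 that of Tgfbr2 (0.0546).

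Among markers of bile ducts and ductular cells 3 of 14 were higher in the change and 0 lower (median 1.12). The water channel Aqp1 had signals of 1.32, 1.40 and 0.83 in day-28 controls, 1.83, 2.10 and 1.46 with CCl4 at day 28, 0.77, 0.99 and 0.86 in day-84 controls and 3.84, 3.66 and 3.27 with CCl4 at day 84 (change 2.10 ± 0.30, adjusted p = 0.00266). All CCl4 arrays lay above the controls of their day, by more at day 84. The chloride channel Cftr was not well above background on any control array. Its signal with CCl4 was at least 3.40-fold higher at day 28 and at least 21.9-fold higher at day 84, where such a bound sets the group mean over the lowest signal counted as above background on the control arrays, or the probe's own signal if that is higher. Its change was called (3.28, adjusted p = 0.0450; under normexp 1.91), as was that of the adhesion molecule Epcam (0.68 to 1.73; change 1.05, adjusted p = 0.0483). The keratins Krt7 and Krt19 were higher at day 84, by 2.11 and 2.66, with changes that were not called (1.43, adjusted p = 0.238, and 2.01, adjusted p = 0.0609). The summed signal of the list was 12.9 to 29.0 in day-28 controls and 29.3 to 31.2 with CCl4 at day 28, close but without overlap. It was 43.4 to 46.2 in day-84 controls and 37.4 to 51.8 with CCl4 at day 84, where the groups overlapped. In this sum all arrays of day 84 lay above all arrays of day 28. Aqp1, Epcam, Krt19, Krt7 and Cftr had scaled log2 signals of 0.99 or lower in day-84 controls, so most of the sum came from other members. On average each of these named markers was lower in day-84 than in day-28 controls, so the higher sum in day-84 controls was not theirs. The count of called markers was 7 without day-28 CCl4 replicate 2, 1 with the slide as a block and 1 on the spike-in scale.

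The mast cell proteases Mcpt1 and Tpsb2 rose late. Mcpt1, a chymase of mast cell granules, stood at −2.60, −2.30 and −1.57 in day-28 controls, −2.10, −1.12 and −1.91 with CCl4 at day 28, −3.47, −3.15 and −3.44 in day-84 controls and −0.09, −0.36 and 0.19 with CCl4 at day 84. The groups overlapped at day 28 and were apart at day 84 (change 2.82 ± 0.53, adjusted p = 0.00848). The tryptase Tpsb2 went from −0.04 to 2.88 (change 2.92, adjusted p = 0.0343), and Mcpt10 lost a day-28 fall (−0.97 to 0.05; change 1.01, adjusted p = 0.0400). These were 3 of 9 mast cell genes tested, with a median change of 2.62, and Cpa3 (4.37, adjusted p = 0.0769) was not called. The other tryptase, Tpsab1, was lower with CCl4 on both days (−1.71 and −2.05), and the lineage factor Gata2 was never well above background. The summed signal of the list was lower with CCl4 on both days, at 3.38 to 4.41 against 8.09 to 11.1 and at 4.86 to 6.12 against 8.59 to 9.25. Tpsab1 signals were 2.76, 2.77 and 2.69 in day-28 controls and 2.66, 2.68 and 2.61 in day-84 controls, far above the other mast cell genes named. Tpsab1 made up most of the control sums, so the lower sums follow that 1 gene and say little about the others. Mcpt1 (adjusted p = 0.0586) and Tpsb2 (adjusted p = 0.0865) were not called with the slide as a block, nor were Tpsb2 (0.0702) and Mcpt10 (0.161) on the spike-in scale, and either setting left 1 call. Under normexp 4 were called, the median change of the list was 0.61 and its median day-84 effect −0.06, against 1.98, and the changes of Mcpt1, Tpsb2 and Mcpt10 were 1.69, 1.70 and 0.61.

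Chemokine genes added 4 higher calls of 29, against 3.56% called higher over all genes tested. Ccl21, which draws lymphocytes along lymphatic vessels, stood at 0.17, 0.52 and 0.17 in day-28 controls, 2.27, 2.94 and 2.10 with CCl4 at day 28, 1.24, 0.68 and 0.21 in day-84 controls and 5.69, 5.37 and 4.63 with CCl4 at day 84 (change 2.37, adjusted p = 0.00780). Cx3cl1 rose from 1.63 to 3.90 (change 2.27, adjusted p = 0.0140) and the receptor Cxcr3 had 0.30, not called, at day 28 and 1.09 at day 84 (change 0.80, adjusted p = 0.0435), and Cxcl13 is described above. The calls of Cx3cl1 (adjusted p = 0.0718 and 0.0624) and Cxcr3 (0.145 and 0.241) were lost with the slide as a block and on the spike-in scale, which left 3 and 2 calls of the list, against 8 under normexp and 7 without day-28 CCl4 replicate 2. The monocyte attractant Ccl2 had effects of 3.5 and 3.49, with a change of −0.0043 ± 0.778 (adjusted p = 0.998), and was well above background on 1 of 3 day-28 control arrays. The scar-associated macrophage marker Trem2 was at least 189.6-fold higher with CCl4 at day 84, when 0 of 3 control arrays were well above background, against 1 of 3 at day 28, and its change was not called (adjusted p = 0.734). Gpnmb, another such marker, had effects of 3.42 and 3.51 with no called change, and 1 of 16 genes of that list, Lyz2, did.

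Several large rises had a smaller effect, or none called, at day 28. Akr1b7, an aldo-keto reductase, was not well above background on any array of the other 3 groups and had signals of 2.01, −0.17 and −1.74 with CCl4 at day 84, at least 13.9-fold over day-84 controls (change 6.0 ± 1.06, adjusted p = 0.00659). The day-84 CCl4 arrays varied widely but all lay above the other 9. Bex1 was at least 104-fold higher with CCl4 at day 84, where its 3 arrays read 3.5, 2.20 and 3.13, after day-28 values of −1.78, 0.99 and −2.25 (change 4.59, adjusted p = 0.00977). Cyp26a1, which breaks down retinoic acid, had no effect called at day 28 (−0.15) and a rise of 3.51 at day 84. Its controls had then fallen (−2.24), from 2.18, 0.04 and −0.02 to −1.65, −1.45 and −1.41. Replicate 1 of the day-28 controls stood apart, which enlarges that fall and lowers the day-28 effect. The change was 3.67 (adjusted p = 0.0119), and with the slide as a block the adjusted p was 0.0521. Tissue factor (F3), the starter of coagulation, read −2.0, −1.69 and −2.46 in the CCl4 group of day 28 and 1.28, 0.39 and 0.21 in that of day 84, with controls between −1.95 and −0.89 (change 2.89, adjusted p = 0.00271). Oncofetal and preneoplastic markers gave 3 higher and 1 lower call of 21, against 6.12% called over all genes tested. Gpc3 (0.85 to 2.87, adjusted p = 0.0385), Afp (0.01 to 0.72, adjusted p = 0.0447) and Epcam moved higher, and Cdh17 moved lower. The placental glutathione transferase Gstp1 was raised on both days, by 1.75 and 1.29, with no call for the change (−0.46, adjusted p = 0.0862). With the slide as a block the calls of Gpc3, Afp, Epcam and Cdh17 were lost, those of Gpc3, Afp and Epcam also on the spike-in scale. Under normexp the change of Akr1b7 was 2.68, that of Gpc3 1.14, and Afp was not called (adjusted p = 0.0640).

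Rhbg, an ammonium transporter of hepatocytes around the central vein, had a larger rise at day 84, with controls that fell. Its signals were 1.48, 1.55 and 0.92 in day-28 controls, 3.11, 3.00 and 2.78 with CCl4 at day 28, −0.61, −0.76 and −0.65 in day-84 controls and 3.05, 3.06 and 3.69 with CCl4 at day 84 (change 2.30 ± 0.26, adjusted p = 0.00104). The CCl4 arrays of the 2 days overlapped, while the controls of the 2 days did not. Of 20 pericentral genes 4 were called higher and 0 lower, against 3.56% called higher over all genes tested. Besides Rhbg these were faded falls of Cyp7a1, Cyp27a1 and Ahr. The pericentral enzymes Glul (−0.20 and −0.13) and Cyp2e1 (−0.28 and −0.40), the latter the main activator of CCl4, had no called change. Cyp7a1, the rate-limiting enzyme of bile acid synthesis, went from −1.19 to 0.83 (change 2.02, adjusted p = 0.0400; with the slide as a block 0.0727). The aryl hydrocarbon receptor Ahr had effects of −1.92 at day 28 and −0.60 at day 84 (change 1.32, adjusted p = 0.00780), and its controls fell by 1.17. On the spike-in scale the calls of Cyp7a1 (adjusted p = 0.104), Cyp27a1 (0.130) and Ahr (0.0620) were lost, and so was that of Cyp27a1 with the slide as a block (0.0792). Of 35 genes of xenobiotic metabolism 4 were called higher and 0 lower, against 3.56% called higher over all genes tested. The median effects were −1.10 and −0.80. The calls depended on the setting, with 0 higher and 1 lower on the spike-in scale, 1 higher and 0 lower with the slide as a block and 3 higher and 2 lower without day-28 CCl4 replicate 2. Cyp2c24 was raised on both days, from −3.13, −3.68 and −4.32 to 3.37, 3.62 and 3.07 at day 28 and from a level not well above background to 2.70, 2.61 and 2.75 at day 84, at least 87.2-fold. Its called change (1.47, adjusted p = 0.0344) came from a dim control group and turned to −0.37 under normexp background correction.

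Grown falls were fewer and smaller. Cdh17, the liver-intestine cadherin, which the study followed up, had signals of 4.66, 4.90 and 4.68 in day-28 controls, 3.71, 3.38 and 3.91 with CCl4 at day 28, 5.12, 5.18 and 4.99 in day-84 controls and 1.65, 1.55 and 2.71 with CCl4 at day 84. CCl4 lay below control on both days, with effects of −1.08 and then −3.13 (change −2.05 ± 0.48, adjusted p = 0.0225; with the slide as a block 0.0700). The sterol exporter subunit Abcg5 fell late (0.32, not called, to −1.91; change −2.22, adjusted p = 0.0128). Hsd17b2, which inactivates sex steroids, rose in controls by 3.64 and in CCl4 arrays by 1.89, so that an effect of 0.68 that was not called at day 28 became −1.08 at day 84 (change −1.75, adjusted p = 0.0216). The transcription factor Irx5 was stable in CCl4 arrays (−0.34, adjusted p = 0.579) and higher in day-84 controls by 1.78 (change −2.12, adjusted p = 0.0278). Oit3, a gene of the sinusoidal endothelium, fell late (0.23, not called, to −0.89; change −1.12), and Dnase1l3, another, fell further (−0.75 to −1.41; change −0.66). The endothelial genes Wnt9b (change 2.10, with 0 of 3 day-84 control arrays well above background) and Tie1 (change 0.92) rose further, by changes of 0.93 and 0.59 under normexp background correction. The slide as a block ended the calls of Abcg5 (adjusted p = 0.122), Hsd17b2 (0.114), Irx5 (0.0516), Dnase1l3 (0.116), Wnt9b (0.0604) and Tie1 (0.219), and normexp that of Irx5 (change −0.85, adjusted p = 0.0649).
The other genes the study followed up did not grow as falls. Nfia, a nuclear factor, had effects of −1.63 at day 28 and −1.01 at day 84 (change 0.62, adjusted p = 0.0302), and its change was not called with the slide as a block (adjusted p = 0.171) or on the spike-in scale (adjusted p = 0.289). Ldlrad4 (−1.09 and −0.70; change 0.39, adjusted p = 0.100) and protein C (Proc; −1.43 and −1.19; change 0.24, adjusted p = 0.533) were lower on both days with no call for the change.

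Faded rises included genes of amino acid stress. Atf3, a stress-induced transcription factor, read −2.34, −1.97 and −2.34 in day-28 controls, 2.25, 2.26 and 2.31 with CCl4 at day 28, −0.38, −0.41 and −0.93 in day-84 controls and 1.91, 1.59 and 1.75 with CCl4 at day 84. The groups of a day did not overlap, and the gap shrank from 4.49 to 2.32 while controls rose by 1.64 (change −2.17, adjusted p = 0.0116; with the slide as a block 0.0845). The kinase inhibitor Trib3 (1.43 to 0.22) and the glutathione-degrading Chac1 (0.75 to −0.15), which the amino acid stress factor ATF4 switches on, lost their rises, and these 3 were the calls among 25 genes of that list, all lower. The call of Chac1 was lost with the slide as a block (adjusted p = 0.113) and under normexp (0.0554). The antiviral gene Rsad2 stood at 3.13, 3.36 and 3.71 in the CCl4 group of day 28 and 2.29, 1.71 and 1.45 in that of day 84, with controls between 0.66 and 1.11 (change −1.74, adjusted p = 0.00443). It was the 1 call among 28 interferon-stimulated genes, against 6.12% called over all genes tested. Of 22 p53 targets 1 was higher in the change, Ddit4, described above, and 3 were lower. Among the latter the death effector Bax (0.58 to 0.10, adjusted p = 0.0180) and the repair enzyme Mgmt (0.98 to 0.30, adjusted p = 0.0450) lost rises, the third, Aen, went from 0.23 to −0.51 (adjusted p = 0.0238), and Cdkn1a had −0.61 on both days. The list had 1 higher and 0 lower calls with the slide as a block, which ended those of Bax (adjusted p = 0.0748) and Mgmt (0.239). Tnfrsf11b, the decoy receptor osteoprotegerin, went from 1.73 to −0.48 (change −2.21, adjusted p = 0.00614; with the slide as a block 0.0567). Fut1, a fucosyltransferase, was at least 3.12-fold higher with CCl4 at day 28 and showed 0.14 at day 84, when its controls had risen into range (change −3.02, adjusted p = 0.00723). Under normexp the changes of Atf3, Tnfrsf11b and Fut1 were −1.42, −1.2 and −0.57.

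Faded falls often went with lower controls at day 84. Bcl6, a repressor more abundant in male rat liver, had signals of 5.45, 4.81 and 4.96 in day-28 controls, 0.78, 0.83 and 1.47 with CCl4 at day 28, 2.49, 2.18 and 1.98 in day-84 controls and 1.28, 1.0 and 1.02 with CCl4 at day 84. The CCl4 arrays of both days overlapped, and the controls fell by 2.86, so the effect shrank from −4.05 to −1.12 (change 2.93 ± 0.66, adjusted p = 0.0196; with the slide as a block 0.0586). Cyp26b1, a retinoic acid hydroxylase, and Acss2, which makes acetyl-CoA for lipid synthesis, lost their day-28 falls (−2.91 and −1.85), with control changes of −2.32 and −1.04. Of genes with predominance in male rat liver 1 was higher and 2 were lower of 20, and the major male cytochrome Cyp2c11 had effects of −5.40 and −8.27 without a called change (−2.86, adjusted p = 0.211). In the CCl4 group of day 28 Cyp2c11 read 5.38, 1.16 and 6.41. Without replicate 2 of that group 1 gene of the male list was higher and 7 were lower, with a median change of −0.76 against −0.21.
Clock genes moved between the days in both arms. Of 19 clock and output genes 7 were higher and 7 lower between the days among controls, and 8 and 6 among CCl4 arrays. Dbp, an output gene with a strong daily cycle, read 1.72, 1.74 and 2.12 in day-28 controls, 3.83, 3.16 and 3.72 with CCl4 at day 28, 6.16, 6.77 and 7.18 in day-84 controls and 7.05, 7.39 and 6.69 with CCl4 at day 84. It rose by 4.84 in controls and by 3.47 with CCl4, and the difference between these was called (−1.37, adjusted p = 0.0336; with the slide as a block 0.149). The core clock gene Bmal1 moved by −1.94 in controls and −2.81 in CCl4 arrays. Per1 lost its day-28 fall (−2.86), with changes of −0.12 in controls and 2.06 in CCl4 arrays (change 2.18, adjusted p = 0.0107). It was well above background on 1 of 3 CCl4 arrays of day 28, and the call was lost under normexp (change 0.74, adjusted p = 0.0701) and on the spike-in scale (adjusted p = 0.0547). The hour of sampling was not given in the sources used here, and the part of such a difference in the other changes was not tested.

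Several gene lists, some with large CCl4 effects and some with small ones, had few or 0 called changes. All 22 periportal hepatocyte genes were lower at day 28 and 21 at day 84, with medians of −1.30 and −1.14 and 0 called changes. Plasma protein genes of hepatocytes gave 1 higher and 1 lower call of 42, with 41 lower at day 28 and 37 at day 84: the kinin precursor Kng1 rose late (0.16 to 1.32) and Apoa4 fell further (−1.89 to −2.49), neither called with the slide as a block (adjusted p = 0.0751 and 0.0727). Albumin had effects of −1.08 and −0.64 (change 0.44, adjusted p = 0.154). DNA replication, with medians of 1.71 and 1.29, had 0 called changes of 24. NRF2 targets and glutathione (0 of 31, medians 0.02 and 0.14) and cytosolic ribosomal proteins (0 of 35, medians 0.15 and 0.29) had small median effects. So had endoplasmic reticulum chaperones (0 of 18, −0.20 and −0.17) and the DNA methylation machinery (0 of 18, 0.04 and −0.18). At the share of 6.12% called over all genes tested, lists of this size hold few calls, so a low count does not set them apart. At an unadjusted p under 0.05 limma called 2433 of all 10842 genes.

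**Figure D5:**
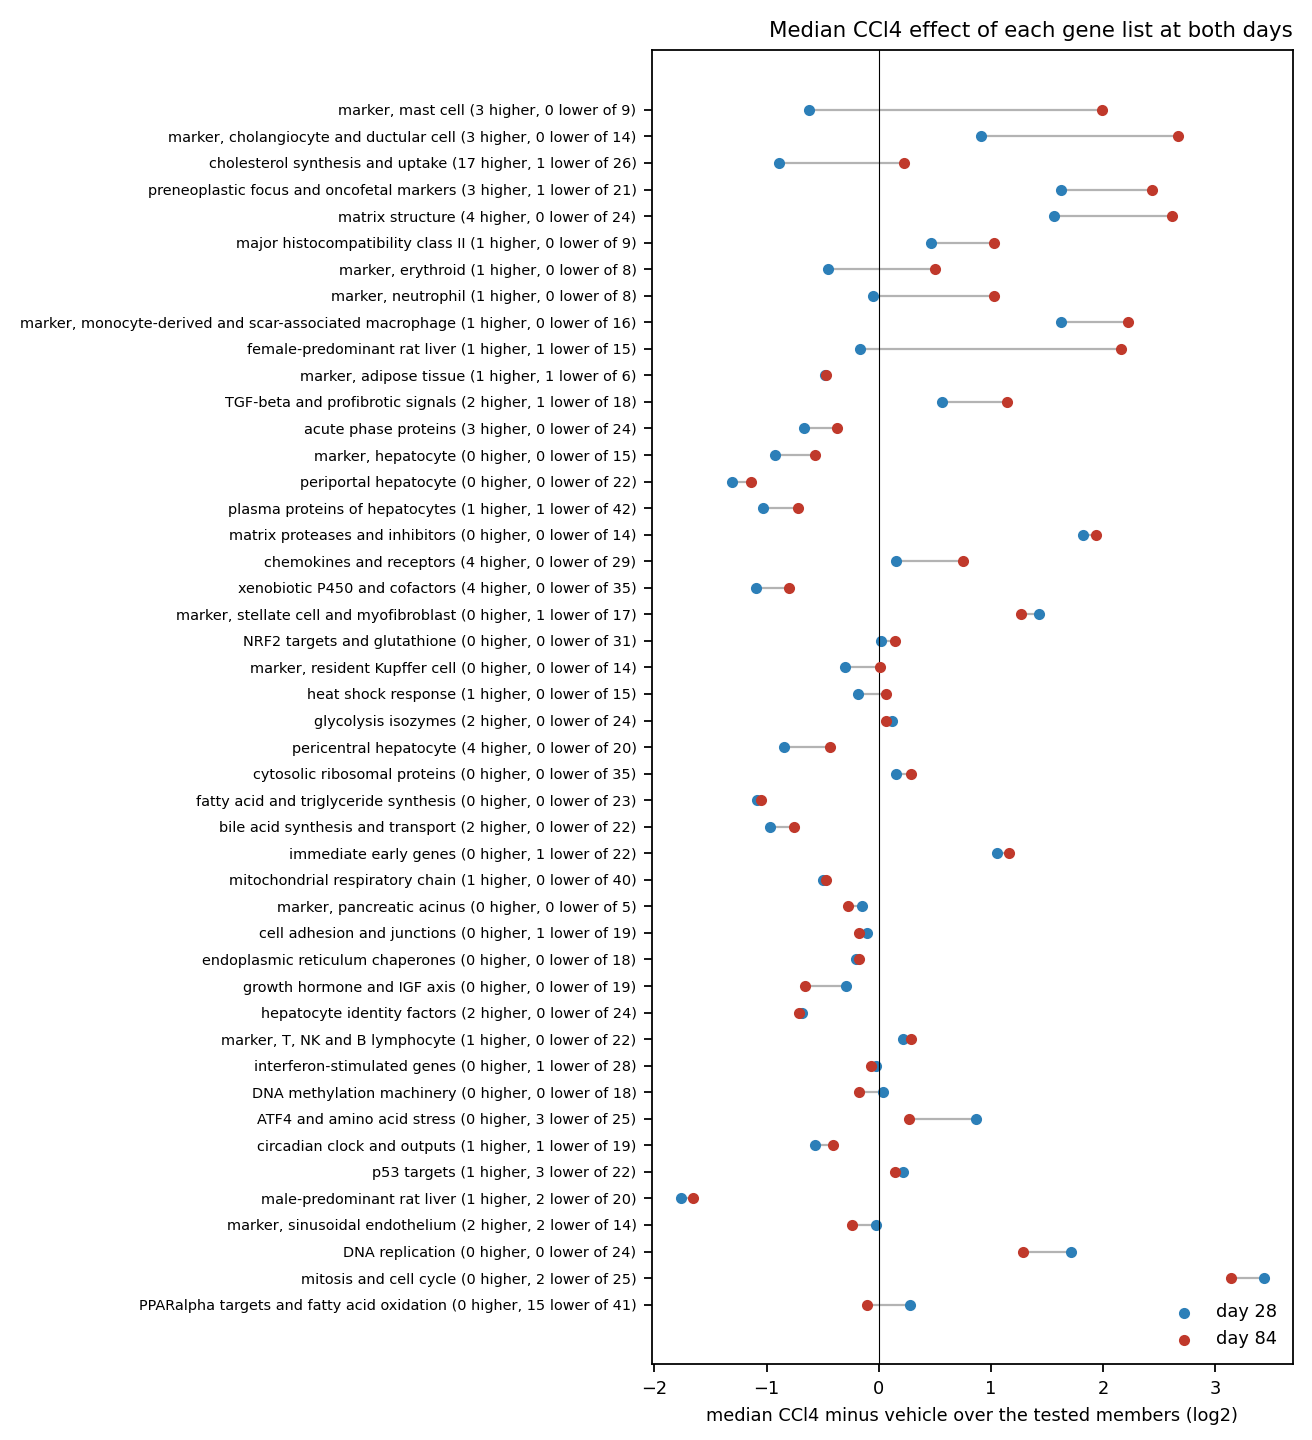
Median CCl4 minus control in log2 at day 28 (blue) and day 84 (red) over the tested members of each gene list with at least 5 members tested, sorted by the median change, with the number of members called higher or lower in the change beside each name. The cholesterol list crosses from −0.89 to 0.23 and the PPARalpha list from 0.28 to −0.11, while mitosis stays above 3.1 on both days.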

How the data were processed

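Cy3-labelled copies of total RNA were read on 18 one-colour Agilent arrays, 3 in each of 6 groups. Signals were extracted by Agilent Feature Extraction (10.7.1.1), per the submitters' processing notes, and the intensity used here is the processed, background-corrected signal of each spot in the files deposited by the authors. Their deposited value table, a linear ratio, was an alternative: in each column 100% of probes lay within 0.01 log2 of the processed signal over a constant near the 75th percentile, and column medians were 0.0852 to 0.0978. Groups and days come from the titles; the design text speaks of 28 days alone.

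Of 61537 probes, 28206 matched 1 gene each by RefSeq accession (15645 genes), and 33331 were not matched and not used. No probe was saturated (0), 18 flagged as outliers were left out, 47.2% to 57.0% of probes were well above background, and raw 75th percentiles were 170 to 326. Log2 processed signals minus the 75th percentile of each array were fitted with limma 3.58.1 in R 4.3.3 (lmFit and eBayes, a mean per group over all 18 arrays, 12 residual and 14.08 total degrees of freedom). Benjamini-Hochberg adjustment ran over 10842 genes, 1 probe per gene, the brightest. The number of arrays limits the precision. Nothing in the labels says that samples of a group came from separate rats, so p-values measure the spread between these samples. The fit was tested on simulated data. Replicate numbers were not treated as pairs in the main fit. Reading used data.table in version 1.17.8, and plots and promoters Python 3.11.15, pandas 2.3.3, numpy 2.4.6 and matplotlib 3.10.9.

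The comparison and the 47 gene lists were chosen with earlier results of these data known. Named genes were the 6 with the largest change in each class among genes well above background on all 12 arrays, up to 3 dim genes per class, given with bounds, up to 4 called and the first 2 measured members of each list, and the genes the study followed up. Alternatives were normexp correction (offset 50), other filters, scalings and fits, the slide or replicate as a block and leaving out each array. Genome positions in the files refer to an older build and are not given. N-nitrosodiethylamine effects were not analysed here. Some genes counted in the lists are not reported by name here.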

Additional observations from a re-analysis of the deposited data

Results flagged for a closer look

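The change of the CCl4 effect between day 28 and day 84 was itself the test of a difference between time points, and 663 of 10842 genes passed it in limma. Among the genes named by the rule, 14 had called effects of opposite sign on the 2 days. Moving from lower to higher than control were Sqle by 3.14, Fmo2 by 2.98, Cxcl13 by 2.70, Ddit4 by 2.61, Tmem273 by 2.23, Hsd17b7 by 2.04, Idi1 by 1.99, Acat2 by 1.87, Hmgcs1 by 1.57, Lyz2 by 1.39 and Stat3 by 0.96 on the log2 scale. Moving from higher to lower were Slc25a30 (−3.34), Ccnf (−2.90) and Plin2 (−1.34). Groups of 3 arrays were too small for a test of single outlying arrays.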

How the results depend on the processing

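Beside the 663 genes called in the change of effect stood 1166 after normexp correction (587 grown, 440 faded, 138 reversed), 397 with no filter on dim probes (217 grown, 131 faded), 301 scaled to spike-ins (105 grown, 35 reversed), 376 from the 12 arrays alone (193 grown, 130 faded) and 406 with the slide as a block (177 grown). Testing all probes, 33424 in number, gave 1411 in the change (750 grown, 490 faded, 171 reversed), 18539 at day 28, 19689 at day 84, 3222 between CCl4 days and 2543 between control days. Between the days, CCl4 arrays gave 752 calls scaled to spike-ins, 954 from the 12 arrays alone and 441 with the slide as a block, and control arrays 490, 679 and 51. Leaving out single arrays gave 385 to 1373 calls in the change, 5580 to 6583 at day 28, 6350 to 7158 at day 84, 704 to 2283 between CCl4 days, 576 to 1529 between control days, 194 to 1035 grown, 126 to 256 faded and 47 to 80 reversed genes. The cause was not tested, except that an unfiltered or all-probe test has more probes and fewer arrays leave fewer degrees of freedom. Deviations from group means had correlations of −0.229 to 0.102 between same-numbered samples of different groups, over 0.1 in 2 of 18 pairs. Between differently numbered samples they were −0.128 to 0.201, over 0.1 in 5 of 36 pairs. With 3 samples per group this cannot exclude a pairing by replicate number. With the replicate block 607 genes were called. The authors' value table gave 660, quantile scaling 662, median scaling 774 and genes above background on all 12 arrays 605. Of 103 named called genes 35 kept the call in all settings tried, 47 kept it with the slide as a block, 63 with spike-ins and 97 without day-28 CCl4 replicate 2. The sign reversed for Cyp2c24 under normexp (−0.37). Medians of 13 lists changed sign with spike-ins and of 5 with the slide as a block. Signals near background limit genes such as Akr1b7 and Cftr to bounds.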
